A study of Homo sapiens with 6 samples.

Results

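The genes described here encode the AP-1 transcription factors: the FOS family (FOS, FOSB, FOSL1 and FOSL2), the JUN family (JUN, JUNB and JUND), and 3 related basic leucine zipper factors, BATF3, MAFF and MAFK. They were taken by gene symbol, matched through the Ensembl identifiers of the deposited gene tables, and all 10 were found among the 20263 genes listed. RNA sequencing libraries had been made from total RNA of LNCaP, an established human prostate cancer cell line that the labels give as hormone-dependent. In 3 libraries the cells carried an empty vector, and in the other 3 a vector for overexpression of LINC01518, a long non-coding RNA. The inserts given disagree: LINC01518 in the title and on each sample, but MEG3, another long non-coding RNA, in the series design text. Group names here follow the samples. LINC01518 and MEG3 themselves were not analysed here, so the overexpression has no check, and the labels do not give the promoter of the vector, the time after it was given, or whether cells were pooled or cloned.

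AP-1 factors bind DNA as dimers that form through their leucine zippers. JUN proteins pair with themselves or with FOS proteins, while FOS proteins need a partner of another family. FOS, FOSB, JUN and JUNB are classic immediate early genes, switched on within minutes by growth factor, stress or kinase signals, and their mRNAs decay fast. FOSL1 and FOSL2 are induced later and held by sustained signalling through the kinase ERK, and JUND is made steadily in many resting cells. JUNB and JUND are often weaker activators than JUN and can oppose it at some promoters. BATF3 has no activation domain of its own and pairs with JUN proteins. MAFF and MAFK are small MAF proteins, which also lack an activation domain and pair with one another or with factors such as NFE2L2 and BACH1.

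Total counts per library lay between 38161544 and 42553688, so a count of 0 allowed up to 0.0705 to 0.0786 CPM (counts per gene on a common library size) for counting error alone. Of 12 markers of prostate luminal cells, KLK2, KLK3, TMPRSS2 and FOLH1, hallmark genes of LNCaP, had 0 counts in all 6 libraries, which goes against the labelled line. KRT8, a keratin gene of luminal cells, had 53252 to 72353 counts. The summed level of the 12 was 2262 to 2535 CPM with empty vector and 2726 to 2895 CPM with overexpression, and KRT8 rose. Of 7 fibroblast markers, COL1A1 and PDGFRB rose by edgeR, LUM and PDGFRA were at 0, and COL1A2 had 0 to 2 counts per library. In the authors' length-scaled TPM, PDGFRB overlapped, at 15.86 to 17.01 with empty vector and 14.57 to 16.94 with overexpression. The sum of the 7 went from 111.8 to 121.7 CPM up to 154.3 to 158.6 CPM. Most of it was COL1A1, at 80.11 to 86.64 CPM and then 113.3 to 115.9 CPM. Of 6 immune markers, CD68 fell, PTPRC, CD3E and LYZ were at 0, and the sum went from 34.71 to 36.48 CPM down to 22.18 to 26.2 CPM. Of 4 endothelial markers KDR was at 0 and 2 were tested, of which 0 were called by edgeR, DESeq2 or limma-voom and 0 had an unadjusted p under 0.05, and their sum was 8.113 to 8.646 CPM against 7.116 to 9.025 CPM. The part of these shifts in the results below was not tested. In such bulk samples, fewer cells with an mRNA and less mRNA per cell cannot be told apart. Whether replicates were separate cultures is not stated in the labels, and the p-values cover only the spread among these 6 libraries, which may be technical.

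Start regions of the genes are shown for JUND, the member that changed, for its paralog JUNB, and for FOS, a member that varied strongly between libraries. Each is the RefSeq window of build GRCh38.p14 from 250 bases before to 50 after the gene start, 5′ to 3′ on the gene's strand. Capitals mark every match, on either strand, to these motifs: the AP-1 site (TGANTCA), the cyclic AMP response element (TGACGTCA) or its half-site (TGACG), the CCAAT box, the GC box (GGGCGG), the TATA box (TATAAA) and the CArG box bound by serum response factor.
JUND: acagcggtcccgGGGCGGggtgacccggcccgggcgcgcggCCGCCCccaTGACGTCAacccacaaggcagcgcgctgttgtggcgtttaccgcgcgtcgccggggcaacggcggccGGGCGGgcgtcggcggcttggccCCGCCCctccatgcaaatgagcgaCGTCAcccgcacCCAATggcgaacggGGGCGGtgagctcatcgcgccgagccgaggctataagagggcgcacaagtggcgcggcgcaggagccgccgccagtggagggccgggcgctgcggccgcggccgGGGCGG
JUNB: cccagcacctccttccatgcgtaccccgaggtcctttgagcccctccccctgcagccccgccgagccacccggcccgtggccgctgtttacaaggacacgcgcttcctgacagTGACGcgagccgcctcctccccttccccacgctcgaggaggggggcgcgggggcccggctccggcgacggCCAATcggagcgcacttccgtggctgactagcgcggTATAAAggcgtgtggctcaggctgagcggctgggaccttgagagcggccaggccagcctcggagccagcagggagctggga
FOS: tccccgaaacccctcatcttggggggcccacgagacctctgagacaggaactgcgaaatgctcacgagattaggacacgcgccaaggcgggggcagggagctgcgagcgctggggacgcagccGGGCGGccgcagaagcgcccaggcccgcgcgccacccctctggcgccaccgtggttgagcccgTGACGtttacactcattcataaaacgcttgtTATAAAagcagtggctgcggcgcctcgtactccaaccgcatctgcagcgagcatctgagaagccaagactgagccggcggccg
The JUND window is chr19:18281573-18281872 on the minus strand, JUNB is chr19:12791236-12791535 on the plus strand, and FOS is chr14:75278578-75278877 on the plus strand. Counted from the start of the gene, JUND held the full response element at -200 to -193 and a further half-site at -86 to -82. It also held 1 CCAAT box and 6 GC boxes, and no exact TATAAA. JUNB held a half-site at -137 to -133, a CCAAT box at -67 to -63 and a TATA box at -31 to -26, and FOS held a half-site at -64 to -60, a GC box at -127 to -122 and a TATA box at -33 to -28. Windows were found for 7 members: these 3, FOSB, FOSL2, JUN and MAFF. The half-site was in 7 of the 7, against 24.6% of 35116 promoters of the same length. The full element, which contains the half-site on both strands, was in 2 (JUND and MAFF) against 1.85%, and the GC box in 6 against 45.0%. The AP-1 site was in 1 (FOSL2) against 7.71%, the TATA box in 3 against 11.5%, the CCAAT box in 4 against 34.6% and the CArG box in 0 against 1.29%. Bases further than 250 before the start were not searched, so the CArG count does not show that these genes lack the element. Only exact matches were counted, so near matches were left out, such as tataag in the JUND window and tgacatca in the JUN window. The absence of a match thus does not show that a gene lacks a TATA box or an AP-1 site. GC content was 62.0% to 77.0% in the 7 windows, against a median of 58.7% for all promoters. A match is a description of the letters, not of a bound site.

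The level of each mRNA can be compared between genes only per length, for which the authors' TPM (transcripts scaled for length and library size) were used. With empty vector the highest levels were those of JUNB at 277.2 ± 15.8 TPM and MAFK at 275.7 ± 20.8 TPM (SD, n = 3 each), which did not differ beyond their spread. JUND followed at 153.3 ± 4.87 TPM and FOSL1 at 65.0 ± 11.7 TPM. FOS at 32.5 ± 13.7, MAFF at 16.9 ± 8.33, JUN at 15.5 ± 0.909 and FOSL2 at 13.6 ± 5.85 TPM overlapped with their neighbours in this order. BATF3 at 9.01 ± 1.003 TPM reached 9.723 TPM at most, just under the lowest FOSL2 library at 9.779 TPM, and FOSB was lowest at 3.80 ± 0.453 TPM. JUN, after which the family is named, thus contributed 3.47% ± 0.354 (SD, n = 3) of the JUN family mRNA with empty vector. With overexpression the highest were MAFK at 241.7 ± 14.0 and JUNB at 233.9 ± 5.503 TPM, which overlapped, then JUND at 204.1 ± 6.70 TPM (SD, n = 3 each). FOSL1 at 41.2 ± 7.89 TPM then overlapped with FOS at 36.7 ± 13.9 TPM.

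The comparison asked which members differed when the overexpression vector was given. JUND rose, and it was the 1 member of 10 tested with an adjusted p under 0.05 over all genes (edgeR quasi-likelihood test with Benjamini-Hochberg adjustment). No member was called lower by edgeR or limma-voom, and 2, JUNB and FOSL1, had an unadjusted p under 0.05 in that direction and were called lower by DESeq2. Among all 13543 genes tested, 3.57% were called higher, 2.03% lower and 5.6% in either direction, so 1 of 10 is near the background. DESeq2 called 5.79% of all genes higher, 3.93% lower and 9.72% in all, and limma-voom, which called JUND alone among the members, 3.51%, 2.01% and 5.52%. JUN had an unadjusted p under 0.05 and no call by any of the 3 tools. The log2 fold change was positive for 5 members and negative for 5, with a median of -0.053 against -0.0035 for all genes tested.

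**Figure D1:**
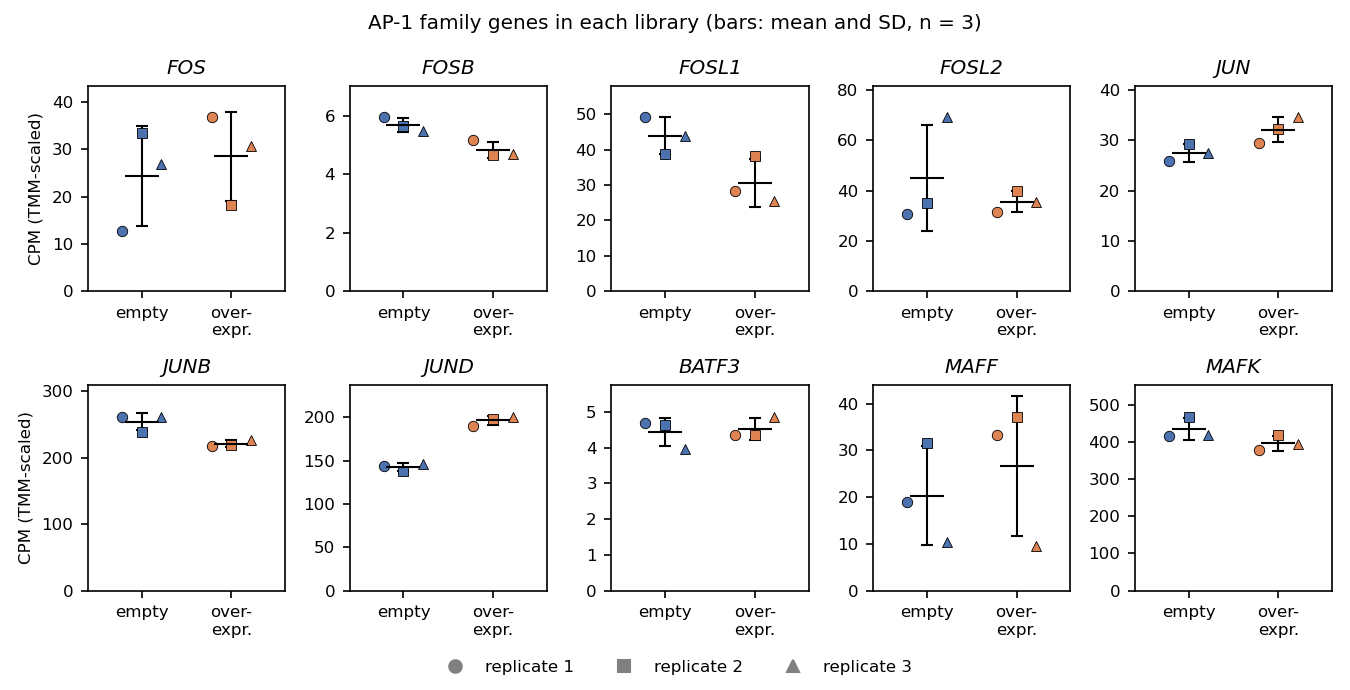
TMM-scaled CPM (vertical axes, from 0) of each gene in the empty vector and overexpression libraries; marker shapes give the replicate number, bars the mean and SD of 3 libraries. JUND lay at 138.1 to 146.6 CPM with empty vector and 190.2 to 201.0 CPM with overexpression, whereas FOS and MAFF spread 2.009-fold or more within each group.

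JUND encodes the JUN protein that is made steadily. It is a single-exon gene on chromosome 19, 18279760 to 18281622, minus strand (GRCh38, GENCODE 29), and no other annotated gene overlaps it. Its TMM-scaled level was 144.3, 138.1 and 146.6 CPM in empty vector replicates 1, 2 and 3 and 190.2, 198.5 and 201.0 CPM in overexpression replicates 1, 2 and 3. All overexpression libraries were above all empty vector libraries, and the gap between the groups was several times the spread within them. Its log2 fold change was 0.46 (SE 0.046, 95% interval 0.35 to 0.56, edgeR adjusted p = 0.00375), a 1.37-fold rise. The call was kept in each of the 6 fits without 1 library, with log2 fold changes of 0.43 to 0.48 and adjusted p-values of 0.0104 to 0.0195. It was also kept in the other 11 alternative fits, at log2 fold changes of 0.41 to 0.46 and adjusted p-values of 1.18e-12 to 0.0283. In TPM the levels were 158.2, 148.5 and 153.1 with empty vector and 196.4, 207.9 and 208.0 with overexpression.

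JUNB encodes a JUN protein of the immediate early class. It lies on the same chromosome, 12791496 to 12793315, plus strand, in 1 exon, of which 259 bases overlap exons of HOOK2 on the opposite strand. JUNB had 261.6, 238.7 and 261.2 CPM with empty vector and 217.0, 219.1 and 226.8 CPM with overexpression. The overexpression libraries were all below the empty vector libraries. JUNB had a log2 fold change of -0.20 (SE 0.050, 95% interval -0.32 to -0.08), and the edgeR adjusted p = 0.0599 missed the threshold. DESeq2 gave it an adjusted p = 0.0205 and edgeR with library size as the only scaling gave 0.0434, against 0.0505 to 0.103 in the other 9 alternative fits with all libraries. HOOK2 had 22.67 to 25.09 CPM with empty vector and 24.46 to 27.6 CPM with overexpression and an edgeR log2 fold change of 0.13 with an adjusted p = 0.350. Reads from JUNB and HOOK2 cannot be told apart in the shared bases without a stated strand setting.

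JUN (chromosome 1, 58780788 to 58784327, minus strand, 1 exon) encodes the founding member of the family. It had 25.82, 29.33 and 27.46 CPM with empty vector and 29.53, 32.25 and 34.57 CPM with overexpression. The groups did not overlap in CPM, by a margin between 29.33 and 29.53, but they did in TPM, where JUN lay at 14.85 to 16.49 against 15.96 to 18.75. JUN had a log2 fold change of 0.22 (SE 0.082, 95% interval 0.03 to 0.41, edgeR adjusted p = 0.156), which is not a call.

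Per length, the JUN family genes had overlapping sums in both groups, while the parts of JUND and JUNB in them lay apart. The sum of JUN, JUNB and JUND was 465.8, 426.1 and 445.8 TPM with empty vector and 440.7, 459.6 and 466.2 TPM with overexpression (exact permutation test, two-sided, p = 0.6). JUND supplied 33.96%, 34.84% and 34.35% of that sum with empty vector and 44.55%, 45.24% and 44.62% with overexpression. JUNB supplied 62.85%, 61.29% and 62.28%, and then 51.82%, 50.91% and 51.36%. Both shares were apart between the groups by over 10 SD of either group, from 34.4% ± 0.440 to 44.8% ± 0.378 for JUND and from 62.1% ± 0.790 to 51.4% ± 0.457 for JUNB (SD, n = 3 each). The exact permutation p of 0.1 for each is the smallest that 3 against 3 libraries can give, and is 0.25 adjusted over the 10 sums, shares and ratios tested. These shares use the same libraries as the tests of JUND and JUNB and add no independent evidence. As JUN took little of the sum, the JUND and JUNB shares mirror each other and are not separate results. The share of JUN was 3.19% to 3.87% with empty vector and 3.62% to 4.02% with overexpression, which overlapped.

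**Figure D2:**
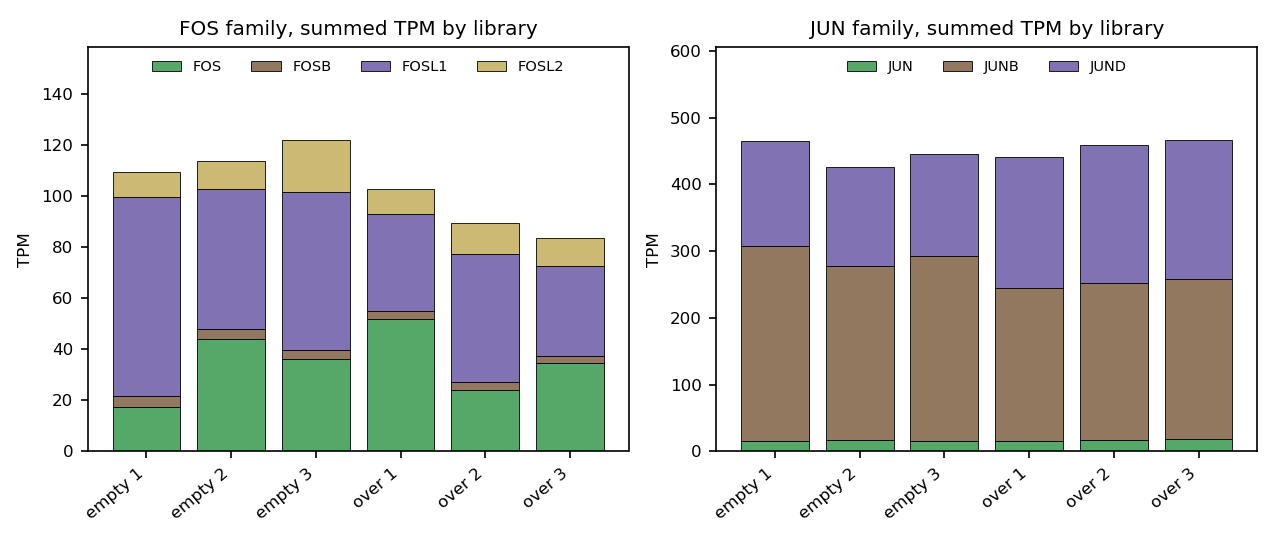
Stacked bars (vertical axes, TPM from 0) of the FOS family genes on the left and the JUN family genes on the right, 1 bar per library. On the right the JUND part was 33.96% to 34.84% of the bar with empty vector and 44.55% to 45.24% with overexpression, at a similar total.

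Of the FOS family, FOSL1 was the most abundant member by mean TPM in both groups. FOSL1 (chromosome 11, 65892049 to 65900573, minus strand) encodes FRA-1, the member tied to sustained ERK signalling. It had 49.11, 38.76 and 43.85 CPM with empty vector and 28.29, 38.17 and 25.38 CPM with overexpression. Overexpression replicates 1 and 3 were well below the empty vector libraries, while replicate 2 lay just under the lowest of them. FOSL1 had a log2 fold change of -0.52 (SE 0.167, 95% interval -0.92 to -0.12, edgeR adjusted p = 0.131). Without overexpression replicate 2 it was -0.71 with an adjusted p = 0.0362, and without any other library the adjusted p was 0.161 to 0.303. DESeq2 gave an adjusted p = 0.0138. FOSL1 was thus called lower by DESeq2, which called 9.72% of all genes, and not by edgeR.

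FOS (chromosome 14, 75278774 to 75282230, plus strand) encodes the classic partner of JUN. Its level was 12.79, 33.37 and 26.97 CPM with empty vector and 36.72, 18.27 and 30.6 CPM with overexpression. Empty vector replicate 1 and overexpression replicate 2 were low and the other 4 were high, so the groups overlapped. The highest library was 2.61 times the lowest with empty vector and 2.01 times with overexpression. The log2 fold change was 0.23 (SE 0.450, edgeR adjusted p = 0.807), and its 95% interval of -0.94 to 1.40 is wide in both directions. Without empty vector replicate 1 the sign turned, at -0.08, and without overexpression replicate 1 the value was 0.0027. It was 0.52 without empty vector replicate 2 and 0.47 without overexpression replicate 2.

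FOSL2 (chromosome 2, 28392448 to 28417312, plus strand) encodes FRA-2. It had 30.61, 34.96 and 69.15 CPM with empty vector and 31.41, 39.7 and 35.47 CPM with overexpression. Empty vector replicate 3 stood apart from the other 5 libraries, which lay between 30.61 and 39.7 CPM. The log2 fold change was -0.34 (SE 0.348, 95% interval -1.23 to 0.56, edgeR adjusted p = 0.612), and it was 0.12 without that library and -0.55 without empty vector replicate 1. FOSB (chromosome 19, 45467995 to 45475179, plus strand) lies wholly within the span of ERCC1 on the opposite strand, with 0 bases of exon in common. It had 5.955, 5.651 and 5.498 CPM with empty vector and 5.167, 4.676 and 4.711 CPM with overexpression. The overexpression libraries were all lower, with a log2 fold change of -0.23 (SE 0.106, 95% interval -0.48 to 0.01, edgeR adjusted p = 0.229) on 178 to 244 counts per library.

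The summed FOS family mRNA was 109.3, 113.5 and 121.7 TPM with empty vector and 102.5, 89.21 and 83.57 TPM with overexpression. The groups did not overlap (114.9 ± 6.30 against 91.8 ± 9.74 TPM, SD, n = 3 each, exact permutation p = 0.1, the smallest possible, 0.25 adjusted over 10). The log2 ratio of the JUN family sum to the FOS family sum was 1.96 ± 0.117 with empty vector and 2.32 ± 0.193 with overexpression, with the same p-values. The groups of this ratio were apart only by a margin between 2.091 (empty vector replicate 1) and 2.104 (overexpression replicate 1). Its exact permutation p was 0.2 in CPM without a length, and 0.1 to 0.2 without 1 library. The FOS family sums overlapped between the groups in CPM without a length, where they were not tested. Within the FOS family no share was apart between the groups. FOSL1 took 48.5% to 71.3% of the sum with empty vector and 37.2% to 56.2% with overexpression, and FOS took 15.8% to 38.8% and 26.9% to 50.3%. In empty vector replicate 1, where FOS was lowest, FOSL1 made up 71.3% of the family, and in overexpression replicate 1, where FOS was highest, 37.2%.

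Among the dimer partners, MAFF (chromosome 22, 38200767 to 38216511, plus strand), a small MAF gene that is itself induced by stress, varied most. It had 18.84, 31.49 and 10.48 CPM with empty vector and 33.17, 37.21 and 9.608 CPM with overexpression. Replicate 3 was lowest in both groups and replicate 2 highest. The log2 fold change was 0.39 (SE 0.673, 95% interval -1.38 to 2.17, edgeR adjusted p = 0.772). It was 0.86 without empty vector replicate 2 and 0.79 without overexpression replicate 3, and 0.084 without empty vector replicate 3, 0.079 without overexpression replicate 2 and 0.21 without overexpression replicate 1. MAFK (chromosome 7, 1530714 to 1543043, plus strand) had 417.4, 469.1 and 419.9 CPM with empty vector and 377.7, 418.1 and 394.8 CPM with overexpression. The groups overlapped in CPM through overexpression replicate 2, but not in TPM (258.6 to 298.9 against 229.1 to 256.7). Its log2 fold change was -0.13 (SE 0.062, 95% interval -0.28 to 0.01, edgeR adjusted p = 0.233), and it was -0.078 without empty vector replicate 2. A stretch of 809 exon bases of MAFK overlaps TMEM184A on the opposite strand, which had a log2 fold change of -0.16, and without a stated strand setting their reads cannot be told apart. BATF3 (chromosome 1, 212686418 to 212699985, minus strand) had 4.686, 4.643 and 3.975 CPM with empty vector and 4.358, 4.346 and 4.87 CPM with overexpression. The groups overlapped, and its log2 fold change was 0.03, with SE 0.123, a 95% interval of -0.26 to 0.31 and an edgeR adjusted p = 0.917. Its sign turned with library size only and on TPM.

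**Figure D3:**
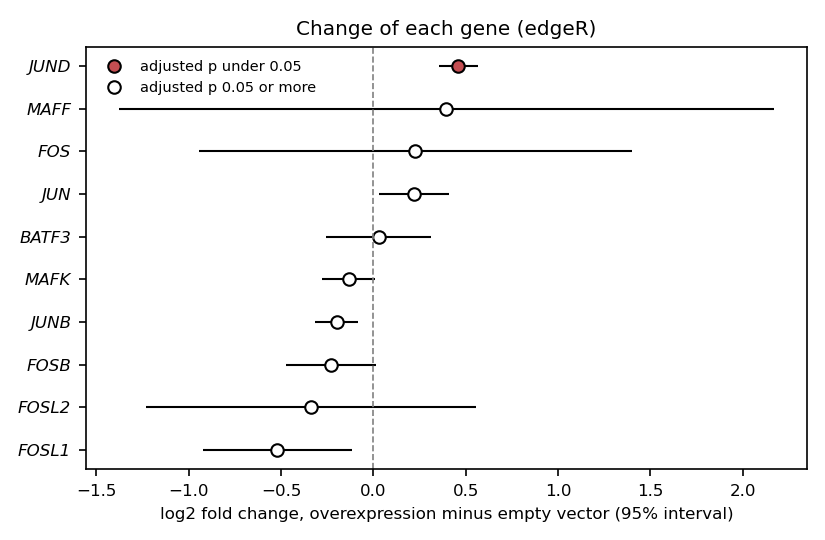
Log2 fold change of each gene (horizontal axis, overexpression minus empty vector) from edgeR, with 95% intervals as lines; the filled point has an adjusted p under 0.05. JUND at 0.46 is the filled point, and the intervals of MAFF (-1.38 to 2.17), FOS (-0.94 to 1.40) and FOSL2 (-1.23 to 0.56) are the widest.

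Of the 10 members, 2 lay wholly higher with overexpression in CPM (JUND and JUN) and 3 wholly lower (JUNB, FOSL1 and FOSB). Over all genes tested, 15.9% lay wholly higher and 15.5% wholly lower, 31.4% together, against 5 of 10 here. The other 5 overlapped. The spread within groups divided the members. The SD of log2 CPM within groups was 0.95 for MAFF, 0.63 for FOS and 0.46 for FOSL2, at percentiles 98.6, 96.4 and 92.9 of all tested genes, whose median was 0.11. FOSL1 was at 0.25 (percentile 80.9), JUN, MAFK, FOSB and BATF3 between percentiles 26.2 and 53.3, JUNB at 0.06 (percentile 18.1) and JUND at 0.04 (percentile 8.16). The libraries that stood apart were not the same for each gene: empty vector replicate 1 and overexpression replicate 2 were low for FOS, replicate 3 of both groups was low for MAFF, and empty vector replicate 3 was high for FOSL2.

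**Figure D4:**
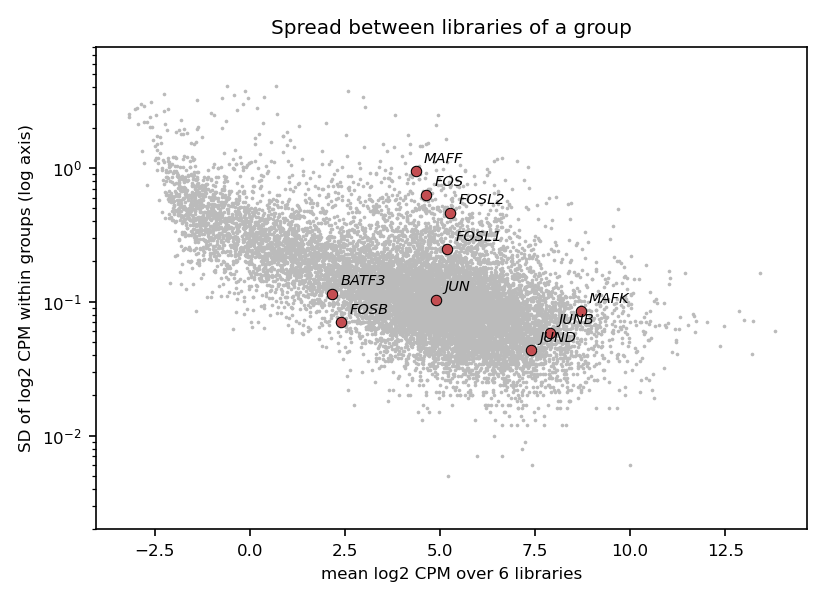
SD of log2 CPM within groups (vertical axis, log scale) against mean log2 CPM (horizontal axis); grey points are the 13543 genes tested, red points the AP-1 genes. MAFF at 0.95, FOS at 0.63 and FOSL2 at 0.46 lie above the bulk of genes of similar level, and JUND at 0.04 lies low.

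The genes whose pattern over the 6 libraries was closest to that of FOS were ART5, FBXL16, ATP6V0E2 and TMEM33. Likeness was the root mean square difference of log2 CPM, each centred on its mean over the libraries, among 11805 genes whose mean log2 CPM reached 1, and it was 0.11, 0.22, 0.22 and 0.23 for these, against 0.53 for FOS around its own mean. FBXL16, for example, had 64.92, 111.2 and 109.8 CPM with empty vector and 117.0, 72.5 and 119.1 CPM with overexpression, low in the same 2 libraries as FOS. None of the 4 is on the list of immediate early genes, and none was called by edgeR. The genes closest to JUND were LRRC24, CTSZ, PEBP1 and FZD1, with differences of 0.047 to 0.050 against 0.23 for JUND around its own mean. CTSZ, which encodes the protease cathepsin Z, had 379.0 to 396.8 CPM with empty vector and 506.3 to 531.2 CPM with overexpression. These genes had all overexpression libraries above all empty vector libraries, which follows from their choice by likeness to JUND. LRRC24, CTSZ and PEBP1 were called higher by edgeR, and FZD1 was not (adjusted p = 0.0507).

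The genes around AP-1 were described through 8 lists with 142 genes, of which 127 were tested. Of these 7 were called higher and 6 lower by edgeR, 10.2% against 5.6% of all genes, and their median log2 fold change was -0.033 against -0.0035. Without 1 library the counts were 1 to 6 higher and 0 to 4 lower. With the deposited TPM, limma-trend called 1 higher, LAMB3, and 6 lower.

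Of 16 genes of the ERK arm, the kinase cascade that induces FOS and stabilises FOSL1, 2 rose and 0 fell by edgeR, DESeq2 and limma-voom alike, with a median of 0.12. With the deposited TPM, limma-trend called 0. An unadjusted p under 0.05 was reached by 6 in the higher and 1 in the lower direction, against 3200 of all 13543 genes in either direction. One of the 2 called by edgeR was ARAF, which encodes a kinase at the head of the cascade. It had 76.51, 77.5 and 81.74 CPM with empty vector and 94.37, 97.46 and 97.19 CPM with overexpression (edgeR adjusted p = 0.0173). ARAF lost its call in 4 of the 6 fits without 1 library. Of 15 tested genes of the JNK and p38 arm, whose kinases phosphorylate JUN and ATF2, 1 fell: MAP3K11, a kinase upstream of JNK, from 104.4 ± 2.78 to 87.3 ± 3.67 CPM (SD, n = 3 each, edgeR adjusted p = 0.0314). Its call was lost in 5 of those 6 fits. The list had a median of -0.0049, no gene was called higher by edgeR or limma-voom, and DESeq2 called 1, MAP2K4, named after its values were seen (log2 fold change 0.90, edgeR adjusted p = 0.197). It was the 1 gene of the list with an unadjusted p under 0.05 in the higher direction.

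Of 16 feedback inhibitors of these kinases, 1 rose and 0 fell by edgeR and limma-voom, with a median of -0.10 and negative log2 fold changes for 10. An unadjusted p under 0.05 was reached by 2 in the higher and 4 in the lower direction, against 3200 of all 13543 genes in either direction. The 2 were DUSP2 and DUSP16, the latter at a log2 fold change of 0.15 and with no edgeR call. The 4, also with no edgeR call, were DUSP6, DUSP4, SPRY2 and SPRED1, at log2 fold changes of -0.59, -0.27, -0.44 and -0.23. DUSP16 and these 4 were named after their values were seen. DESeq2 called DUSP6, an ERK phosphatase gene, lower (edgeR adjusted p = 0.0638). The gene that rose was DUSP2, a nuclear phosphatase gene, with 23.33, 21.43 and 24.47 CPM with empty vector and 37.6, 29.68 and 33.83 CPM with overexpression (edgeR adjusted p = 0.0237, lost in 4 of the 6 fits without 1 library). None of the 6 genes of serum response factor and its ternary complex partners, which act at the FOS promoter, was called by edgeR. There SRF had a log2 fold change of 0.13 and ELK4 of -0.17, the 2 with an unadjusted p under 0.05, and DESeq2 and limma-voom called 0 of the 6.

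Of 27 other immediate early genes tested, 3 rose and 3 fell, with a median of -0.03. IER3, a survival gene, went from 80.1 ± 4.36 to 61.6 ± 0.894 CPM (SD, n = 3 each, edgeR adjusted p = 0.0127). PHLDA1 fell by 0.46 on the log2 scale (adjusted p = 0.0154 by edgeR) and GADD45B, a stress sensor gene that acts on p38 and JNK signalling, by 0.59 (adjusted p = 0.0160). CCN2, a matrix protein gene, rose by 0.31 (adjusted p = 0.0164). NR4A1 and NR4A3, orphan nuclear receptor genes named after their values were seen, rose by 0.36 and 0.75. IER3 and PHLDA1 lost their calls in 2 of the 6 fits without 1 library, GADD45B, CCN2 and NR4A3 in 3 and NR4A1 in 4.

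Of 28 genes known as AP-1 targets in other cells, 19 were tested, and the collagenase and stromelysin genes MMP1, MMP3, MMP10 and MMP13 were among the 9 too low to test. Of the 19, 1 rose and 1 fell by edgeR, with a median of -0.08. The log2 fold change was negative for 13 and positive for 6. At an unadjusted p under 0.05 there were 1 higher and 5 lower, against 3200 of all 13543 genes in either direction. LAMB3, which encodes a laminin chain, had 164.4, 165.1 and 169.3 CPM with empty vector and 203.5, 217.6 and 215.2 CPM with overexpression. Its rise of 0.35 on the log2 scale (SE 0.045, edgeR adjusted p = 0.00818) was called in each of the 6 fits without 1 library. AREG, the amphiregulin gene, went from 3.65 ± 0.0746 to 2.41 ± 0.141 CPM (SD, n = 3 each, edgeR adjusted p = 0.0390) and lost its call in all 6 such fits. Of 16 tested among the other partners in the same dimer network, DDIT3 fell and 0 rose by edgeR and limma-voom, with a median of -0.03. An unadjusted p under 0.05 was reached by 2 in each direction, and DESeq2 called 0 higher and, besides DDIT3, BACH1 lower, which was named after its values were seen. DDIT3 encodes the stress factor CHOP and had 43.3, 60.35 and 44.57 CPM with empty vector and 28.55, 17.26 and 20.83 CPM with overexpression, and its call (edgeR adjusted p = 0.0490) was lost in 5 of the 6 fits. None of the 12 genes of AP-1 turnover and cofactors was called by edgeR, DESeq2 or limma-voom, and 3 had an unadjusted p under 0.05. The lowest p-values there were those of RNF187, a JUN coactivator gene, at a log2 fold change of -0.13 and the casein kinase gene CSNK2A1 at -0.15.

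**Figure D5:**
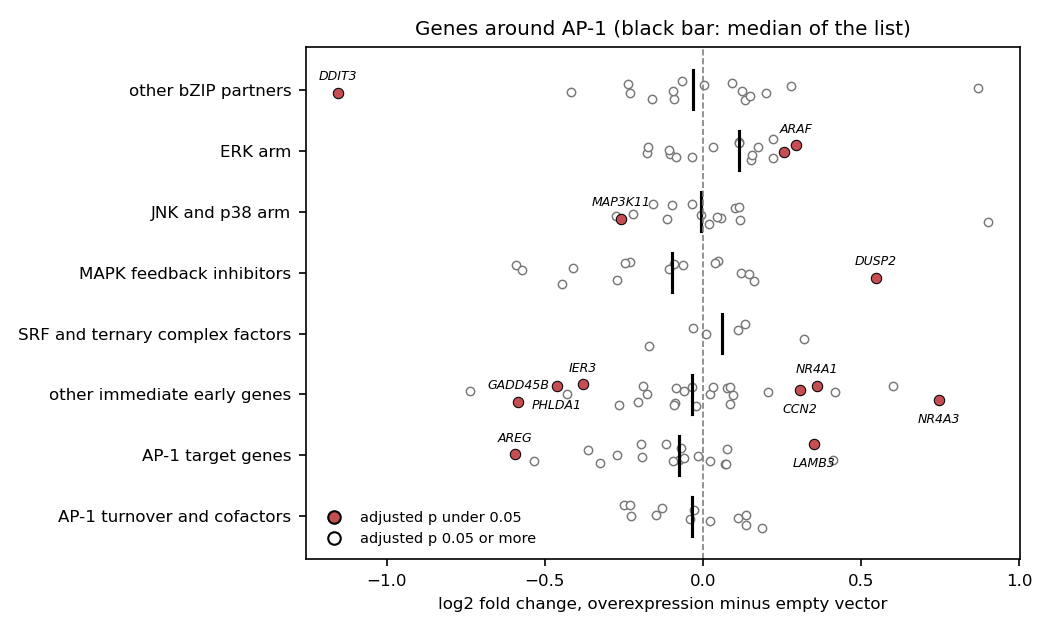
Log2 fold change (horizontal axis, overexpression minus empty vector) of the 127 tested genes of 8 lists around AP-1, 1 row per list; filled points, named except for 1, have an adjusted p under 0.05 and black bars are list medians. The 13 filled points lie on both sides of 0, and the medians lie between -0.10 and 0.12.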

How the data were processed

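Gene expression was measured by RNA sequencing in 3 empty vector and 3 overexpression libraries. The submitters' processing notes name Trimmomatic 0.36, HISAT2, featureCounts of Subread 1.5.1, DESeq and build GRCh38. The deposited counts are whole reads per gene without normalization. The deposited TPM were made by the authors with a tool and gene lengths not given in the sources used here, nor are the annotation release and strand setting. Symbols were found for 20148 and GENCODE 29 positions for 20224 of 20263 genes.

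In R 4.3.3, edgeR 4.0.16 was fitted to all 6 libraries with the group as its only term (filterByExpr with a minimum count of 10 and total of 15, TMM scaling, robust quasi-likelihood F test). That left 13543 genes, called at a Benjamini-Hochberg adjusted p under 0.05. SE was the log2 fold change divided by the square root of F, and 95% intervals used the fitted degrees of freedom. Alternatives used other scalings and filters, DESeq2 1.42.0, limma-voom and limma-trend (limma 3.58.1) on log2(TPM + 1) or log2(TPM + 0.1), a replicate block, and fits without 1 library. Fits were tested on simulated data, with the spread of each gene set by the dispersion trend. Of 50 genes changed at each size, edgeR recovered 10% at 1.25-fold, 66% at 1.5-fold and 100% at 2-fold. The estimated changes of FOS, FOSB, JUN, JUNB, MAFK and BATF3 were below 1.25-fold, a size that edgeR seldom recovered. Shares and sums of TPM were compared by exact two-sided permutation tests. Members, lists and tests were chosen with earlier results of these data known. All members were named, as were up to 4 called genes per list, or the 2 with the smallest p where none was called, and the 4 genes closest in pattern to FOS and to JUND; genes named outside this rule, NR4A1 and NR4A3 among them, are given as chosen after their values were seen. One gene that this rule would name is not reported here.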

Additional observations from a re-analysis of the deposited data

How the results depend on the processing

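JUND was called higher in each of 17 alternative fits. The count of members called lower was 0, but 1 (JUNB) with library size only, 2 (JUNB and FOSL1) with DESeq2 and 0 to 1 without 1 library (FOSL1, without overexpression replicate 2). Without 1 library the log2 fold change lay between -0.083 (without empty vector replicate 1) and 0.52 for FOS, between -0.55 and 0.12 for FOSL2, between 0.079 and 0.86 for MAFF, between -0.17 and -0.078 for MAFK and between -0.044 and 0.067 for BATF3, and BATF3 was at -0.0043 with library size only, -0.014 on log2(TPM + 1) with or without the filter and -0.015 on log2(TPM + 0.1). The FOSB share of the FOS family differed by -0.072 percentage points and the FOSL2 share by -0.82 in CPM without a length, and by -0.24 to 0.31 and -1.06 to 2.825 without 1 library. The replicate block left 4 pathway genes higher and 2 lower, against 7 and 6. On TPM the pathway genes called higher were 1 at either pseudocount and without the filter, where 2 were lower. Without 1 library they were 1 to 6 higher and 0 to 4 lower, with 0 lower without overexpression replicate 3.

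Over all genes 484 were higher and 275 lower. The counts were 784 and 532 with DESeq2, 346 and 382 with library size only, 120 and 148 on log2(TPM + 1), 106 and 137 on log2(TPM + 0.1), 74 and 78 without the TPM filter, 154 and 78 with the replicate block, and 131 to 287 and 62 to 171 without 1 library. Fits without 1 library have fewer samples, and the cause of the other differences was not tested. Same-numbered libraries did not deviate together (correlations across 11806 genes of -0.0002, 0.036 and 0.040), and not every library correlated best with its own number, so the block result rests on the number alone. Depth was ample for all members, at 154 or more counts per library, and the spread of FOS, FOSL2 and MAFF between libraries limits their intervals.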
